A study of Rattus norvegicus with 12 samples.

Results

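The piRNA profile of rat liver 24 hours after partial hepatectomy was compared with that of sham-operated liver. The comparison took 8 of the 12 libraries of the series, chosen by their labels. These were the 2 libraries titled 24h_PH1 and 24h_PH2 (24h, replicates 1 and 2) and the 6 libraries described as pre_PH (replicates 1 to 6). All came from the liver of Fischer-344 rats, an inbred strain. The pre_PH livers were normal livers of sham-operated rats, and the 24h livers were in the regeneration phase after surgery. Age and sex were not given in the sources used here, nor whether each library stands for 1 animal or a pool. The p-values below therefore rest on differences among libraries, some of which may be technical. With no batch or date in the labels, a shared preparation of the 24h libraries cannot be told apart from the time.

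In partial hepatectomy, lobes of the liver are removed and the remnant regrows, with hepatocytes re-entering the cell cycle early after surgery. PIWI-interacting RNAs (piRNAs) are small RNAs that guide PIWI proteins to matching transcripts and are best known for silencing transposons in the germ line. In tissues outside the germ line, short reads that match a piRNA name can also be fragments of other abundant RNAs such as tRNAs, and read counts alone do not separate these sources. The deposited tables listed piRNA names and no protein-coding genes, so the labelled tissue could not be checked against marker genes. In whole tissue, fewer cells of a type and less RNA per cell cannot be told apart.

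Over the 8 libraries, 414 piRNA names had at least 1 read, of 701 in the whole series. Library totals ran from 22897041 to 29234812 reads, and both of these extremes were 24h libraries. Listed piRNA reads numbered 122673 and 183773 at 24h and 122699 to 351818 in pre_PH. Levels per library are given as RPM, reads per 1000000 library reads. A name with 0 reads over a whole group may have up to 3 reads over its libraries, or 0.0188 RPM in pre_PH and 0.0575 RPM at 24h (counting error only). Among the pre_PH libraries, replicate 3 stood apart by its scaling factor of 0.480 and its piRNA share, and replicate 1 by the low level of several abundant names. The calls, the piRNA share, and the shares that these libraries move most are also given without them.

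For none of the 5 measures of the whole piRNA content did both 24h libraries lie outside the range of sham-operated liver. In the 24h libraries piRNA reads were 0.420% of library reads in replicate 1 (95% Wilson interval 0.417 to 0.422%, counting error only) and 0.803% in replicate 2 (0.799 to 0.806%). The 6 pre_PH libraries ran from 0.478% through a median of 0.586% to 1.25%. Thus 1 of the 24h libraries lay below all of pre_PH and the other well inside its range. The log2 difference of the means was -0.21 (exact two-sided permutation p = 0.679, adjusted p = 0.750 over 5 measures). With 2 against 6 libraries there are 28 splits, and the smallest possible p is 0.0357. A single measure at that p would not pass after adjustment over 5 measures.

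Diversity was measured as the number of names expected at an equal depth of 122673 piRNA reads. It was 132 and 115 in the 24h libraries, against 111 to 193 in pre_PH with a median of 142. Means were 123 ± 12.4 (SD, n = 2) and 144 ± 31.8 (SD, n = 6), and the groups overlapped (exact permutation p = 0.500, adjusted p = 0.750). The effective number of names, the exponential of the Shannon entropy of their read shares, weighs evenness instead. It was 8.68 and 7.88 at 24h, within the pre_PH range of 5.92 to 9.11 (exact permutation p = 0.393, adjusted p = 0.750). The 10 names most abundant in pre_PH held 92.7% and 95.05% of piRNA reads at 24h. The pre_PH range was 88.2 to 94.3%, so replicate 2 exceeded it (exact permutation p = 0.321, adjusted p = 0.750). Distinct read sequences numbered 10.96 and 7.64 per 1000 piRNA reads at 24h, within the 4.73 to 11.1 of pre_PH (exact permutation p = 0.750, adjusted p = 0.750). These p-values do not show that the groups were alike, since the spread within pre_PH was wide. Without pre_PH replicate 3 the log2 difference in piRNA share was -0.030, and without replicate 1 it was -0.31 (exact permutation p = 0.952 and 0.571).

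**Figure D1:**
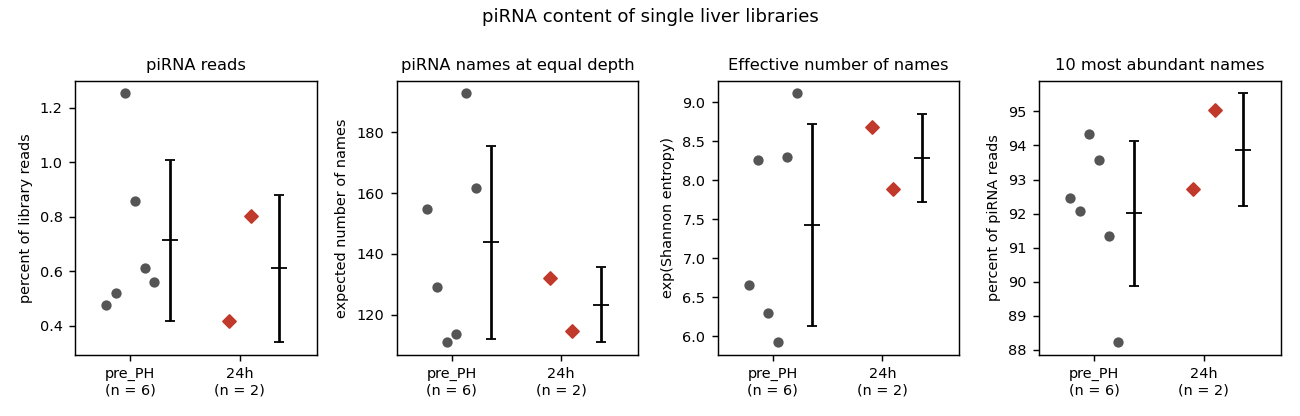
Each panel gives a measure of piRNA content, with 1 point for each library (6 pre_PH in grey, 2 24h in red) and the mean with its SD beside the points. The 24h points fall inside the pre_PH range, except the lower piRNA share (0.420% of library reads) and the higher share of the 10 most abundant names (95.05% of piRNA reads).

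The distance between libraries was compared as well. It was taken as the root mean square difference of log2 normalised CPM over the 63 names found in all 8 libraries. Normalised CPM are reads per 1000000 piRNA reads after scaling by trimmed mean of M-values (TMM), and each is a level relative to the rest of the piRNA pool. The 24h libraries were 1.05 apart. Pairs of pre_PH libraries were 0.819 to 2.33 apart (median 1.30, 15 pairs), and pairs of a 24h with a pre_PH library 1.09 to 2.13 (median 1.38, 12 pairs). Of the pre_PH libraries, replicate 4 was nearest to both 24h libraries (1.09 and 1.22) and replicate 1 farthest (1.97 and 2.13). Each 24h library was nearer to the other than to any pre_PH library. The 12 pairs across groups thus lay inside the range of the 15 pairs within pre_PH, but the widest pairs of both kinds held pre_PH replicate 1. Both medians also include the pairs with that replicate. Without that library, pairs within pre_PH were 0.819 to 1.52 apart and pairs across groups 1.09 to 1.57. Only the widest pair across groups, 24h replicate 1 with pre_PH replicate 3, then lay slightly beyond the pre_PH range.

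**Figure D2:**
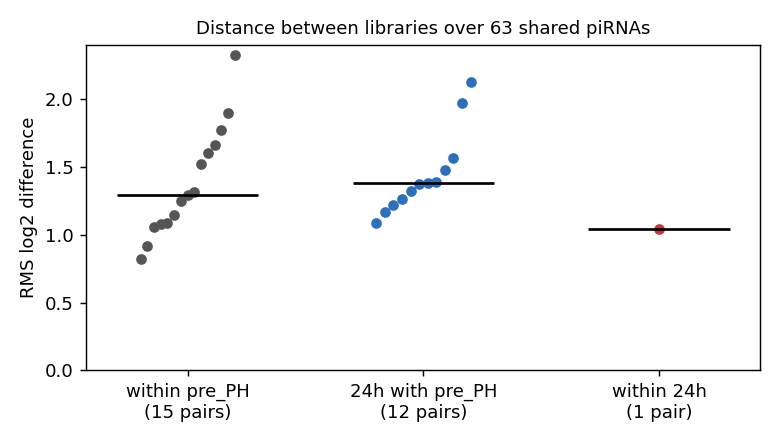
Each point is a pair of libraries, and the vertical axis is the root mean square log2 difference of normalised CPM over 63 shared piRNAs, with a line at the median of each kind of pair. Pairs of 24h with pre_PH (median 1.38) cover nearly the same range as pairs within pre_PH (median 1.30), and the widest pairs of both kinds hold pre_PH replicate 1.

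Among the 10 most abundant liver piRNAs, 3 had both 24h libraries outside the pre_PH range of shares. None passed the test after adjustment over 10 names, but that test could hardly pass. With only 28 splits, a few names at the smallest possible p do not pass after adjustment, whatever the size of their difference. Failing it is therefore no evidence against a difference in these shares. The leading name of both groups was rno_piR_000685, with 36.7% and 33.1% of piRNA reads at 24h. In pre_PH it held 39.3% at the lowest, 42.3% at the median and 54.8% at the highest, so both 24h libraries lay below all 6. The mean was lower by 9.13 percentage points (34.9% ± 2.56 SD, n = 2, against 44.0% ± 5.79, n = 6, exact permutation p = 0.107, adjusted p = 0.357 over 10 names).

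The name rno_piR_005556 went the other way, with 19.6% and 26.5% of piRNA reads at 24h against 0.849 to 19.6% in pre_PH (median 7.46%). The lower of the 24h values lay just above the highest of pre_PH, which was that of replicate 3. Its mean share was 23.0% at 24h and 8.98% in pre_PH, the smallest p that 28 splits allow (exact permutation p = 0.0357, adjusted p = 0.179). Without pre_PH replicate 3 the difference in mean share was 16.2 percentage points, against 14.1 with it, and without replicate 1 it was 12.4. It was the second most abundant name in both 24h libraries, as in pre_PH replicates 3 and 4, and ranked 3 to 9 in the other pre_PH libraries. For rno_piR_008639 the shares were 5.59% and 6.55% at 24h and 0.476 to 4.498% in pre_PH (median 3.17%). Both 24h libraries again lay above all 6 (exact permutation p = 0.0357, adjusted p = 0.179). The mean was higher by 2.97 percentage points, by 3.25 without pre_PH replicate 3 and by 2.44 without replicate 1. These shares depend on what the other names do. By normalised CPM both names overlapped between the groups, with log2 fold changes of 1.02 ± 0.96 (SE) and 0.82 ± 0.80 (edgeR adjusted p = 0.727 and 0.742). Without 24h replicate 2 these became -0.059 and -0.037. The overlap rested on pre_PH replicate 3: without it, both 24h libraries lay above the rest of pre_PH for both names. The fold changes then rose without passing.

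The other abundant names overlapped between the groups in share, apart from single libraries. The share of rno_piR_004288 was 10.8% and 4.86% at 24h and 2.85 to 26.6% in pre_PH. That of rno_piR_005787 was 6.07% and 8.78% against 0.115 to 11.1%, a 97.2-fold span within pre_PH that ran from replicate 1 to replicate 3. Without replicate 1 that span was 8.62-fold, and without replicate 3 it was 54.1-fold. A wide span was also found for rno_piR_000030, at 2.59% and 3.67% against 0.151 to 5.07%, a 33.5-fold span that was 9.24-fold without replicate 1 and 17.5-fold without replicate 3. By contrast rno_piR_005567 was nearly equal in the 24h libraries (3.36% and 3.73%) and inside the pre_PH range (0.691 to 5.54%). For rno_piR_005359, replicate 1 at 24h (3.61%) exceeded the pre_PH range of 0.441 to 2.42% and replicate 2 (1.61%) did not. The name rno_piR_005901 ranked 8 and 6 in the 24h libraries and rno_piR_005900 ranked 10 and 9. In pre_PH replicates 3 and 4 the first ranked 7 and 8 and the second 8 and 7, and in the other 4 pre_PH libraries both ranked 3 to 5. At 24h their shares were 2.82% and 4.12% for the first, inside the pre_PH range of 2.11 to 10.95%, and 1.57% and 2.19% for the second, against 1.88 to 8.91%.

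**Figure D3:**
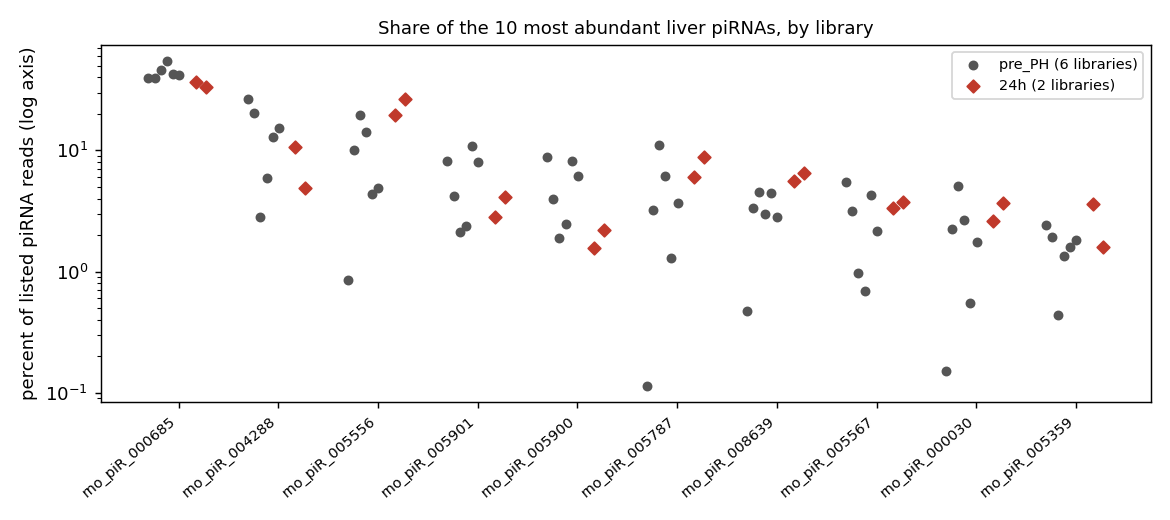
The vertical log axis gives the percent of listed piRNA reads held by each of the 10 names most abundant in pre_PH, with 1 point for each library. Both 24h points lie above all pre_PH points for rno_piR_005556 and rno_piR_008639 and below them for rno_piR_000685, while the pre_PH points of rno_piR_005787 span from 0.115 to 11.1%.

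Single piRNAs were tested with edgeR over the 80 names that passed a filter on low counts over the 12 libraries. At a Benjamini-Hochberg adjusted p under 0.05, 1 name was higher and 1 lower, or 2.50% of the tested names (1.25% in each direction). Of the 414 names, 58 would have passed the filter on the 8 libraries alone, and the other 22 entered through the 48h and 168h libraries. Both called names were among the 58. Fold changes were positive for 33 names and negative for 47, with a median of -0.22, and 9 had an unadjusted p under 0.05. Other scalings moved the log2 fold changes by a median of between -0.27 (the authors' library total) and 0.41 (TMM computed without the 10 leading names). The split of calls was 1 higher and 0 lower with scaling to the piRNA total, with upper-quartile scaling and when TMM left out the 10 leading names. It was 1 higher and 4 lower with the authors' library total.

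The name that rose was rno_piR_020049, a rare species in sham-operated liver. Its read counts in pre_PH replicates 1 to 6 were 8, 6, 1, 6, 15 and 8, against 104 and 43 at 24h. This was 3.56 and 1.88 RPM against 0.0356 to 0.521, a ratio of means of 9.95. Both 24h libraries stood above all 6 pre_PH libraries, with replicate 1 the higher. The reads came from 3 distinct sequences in each 24h library and from 1 or 2 in pre_PH, so the added reads were mostly copies of few sequences. The log2 fold change was 3.68 ± 0.76 (SE, edgeR adjusted p = 0.0065). Without 24h replicate 1 it was 2.81 and did not pass (adjusted p = 0.302), and limma-voom gave adjusted p = 0.0672. The call held without pre_PH replicate 1 and without replicate 3.

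The name that fell was rno_piR_001415, with 141, 130, 117, 102, 169 and 103 reads in pre_PH replicates 1 to 6 and 21 and 17 at 24h. These were 0.718 and 0.742 RPM at 24h and 3.67 to 5.87 RPM in pre_PH, whose mean was 6.54 times that at 24h. The pre_PH libraries lay close together and far above both 24h libraries. The number of distinct sequences was 10 and 6 at 24h and 13 to 22 in pre_PH, a number that falls with the reads themselves. The log2 fold change was -2.43 ± 0.64 (SE, edgeR adjusted p = 0.0366). That call was lost without pre_PH replicate 2, 3 or 6 (adjusted p = 0.109, 0.0822 and 0.0842), 24h replicate 1 or 2 (0.293 and 0.149) or 168h replicate 2 (0.0987), while the log2 fold change stayed between -2.78 and -2.06.

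These 2 names also had values at the later times, in the same fit and against the same pre_PH libraries. For rno_piR_020049 normalised CPM was 854 and 304 at 24h, 439.5 and 16.6 at 48h, and 160 and 83.7 at 168h, against 5.92 to 76.8 in pre_PH. The difference between 24h and either later time did not pass (edgeR adjusted p = 0.298 for 48h and 0.290 for 168h). Against pre_PH, this name was also higher at 48h (log2 fold change 2.32, edgeR adjusted p = 0.0207), although 48h replicate 2 lay inside the pre_PH range. At 168h it did not pass against pre_PH (edgeR adjusted p = 0.372). Normalised CPM of rno_piR_001415 was 172 and 120 at 24h, 352 and 688 at 48h, and 526 and 471 at 168h, with 594 to 1173 in pre_PH. Both later times were above 24h in every library, but neither difference passed (edgeR adjusted p = 0.0539 and 0.164). Against pre_PH, neither later time passed for this name (edgeR adjusted p = 0.403 for 48h and 0.503 for 168h).

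**Figure D4:**
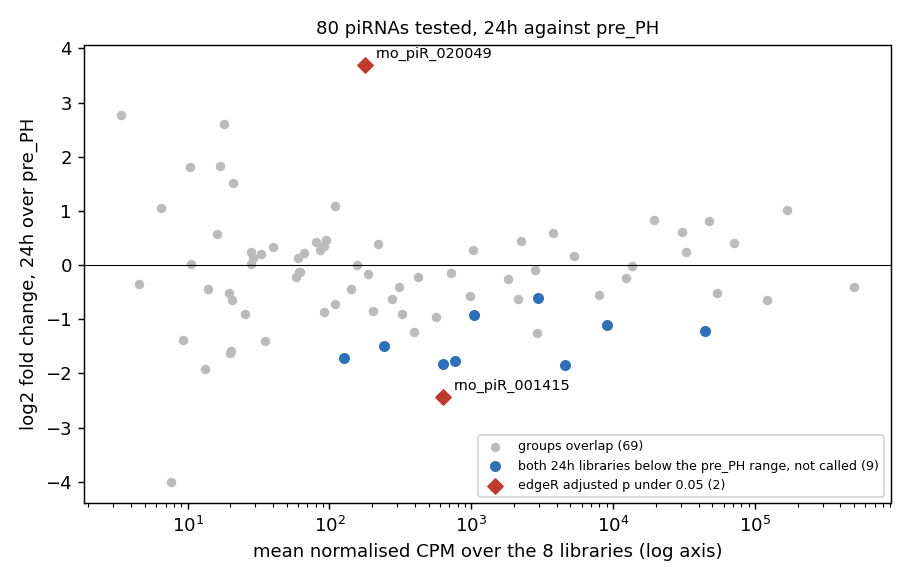
Each point is 1 of the 80 tested piRNAs, with its mean normalised CPM over the 8 libraries on a log axis and its log2 fold change at 24h over pre_PH. The called names are rno_piR_020049 (3.68) and rno_piR_001415 (-2.43), and the 9 blue points, all below 0, are names whose 24h libraries both lay below the pre_PH range without passing the test.

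Separation of the groups was one-sided in normalised CPM. Both 24h libraries lay below the whole pre_PH range for 10 of the 80 names (12.5%) and above it for 1 (1.25%), or 11 in all (13.8%). This depended on the scaling: by share of piRNA reads the numbers were 5 and 5, and by RPM of the library 12 below and 2 above. In normalised CPM, the number above became 3, 5, 2 and 5 without pre_PH replicate 2, 3, 4 and 5, while that below stayed between 10 and 12. On all 3 scales the groups stayed apart for 4 names below (5.0%) and 1 above (1.25%). These 5 were the called names and rno_piR_015359, rno_piR_000219 and rno_piR_005633.

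Of these, rno_piR_015359 was the most abundant. It had 8.86 and 6.11 RPM at 24h against 26.02 to 42.7 in pre_PH, from 259 and 140 reads and 613 to 1199 reads. The pre_PH mean was 4.55 times that at 24h, and the lowest pre_PH library lay far above both 24h libraries. Its log2 fold change of -1.84 ± 0.64 (SE) did not pass over 12 libraries (edgeR adjusted p = 0.235). It did pass when only the 8 libraries were fitted (0.0173), without 48h replicate 1 (0.0333) or 48h replicate 2 (0.0188), with DESeq2 (0.0107) and with the authors' library total (0.0469).

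For rno_piR_000219 the values were 1.20 and 0.917 RPM at 24h and 2.87 to 7.72 in pre_PH, from 35 and 21 reads against 71 to 206. Those for rno_piR_005633 were 1.16 and 1.62 RPM against 4.24 to 7.09, from 34 and 37 reads against 119 to 173. In both, all 6 pre_PH libraries were above both 24h libraries. Their log2 fold changes were -1.82 ± 0.69 and -1.77 ± 0.68 (SE) and did not pass (edgeR adjusted p = 0.262 for each). That of rno_piR_005633 passed with DESeq2 (0.0233), with the authors' library total (0.0469) and without 48h replicate 2 (0.0432).

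**Figure D5:**
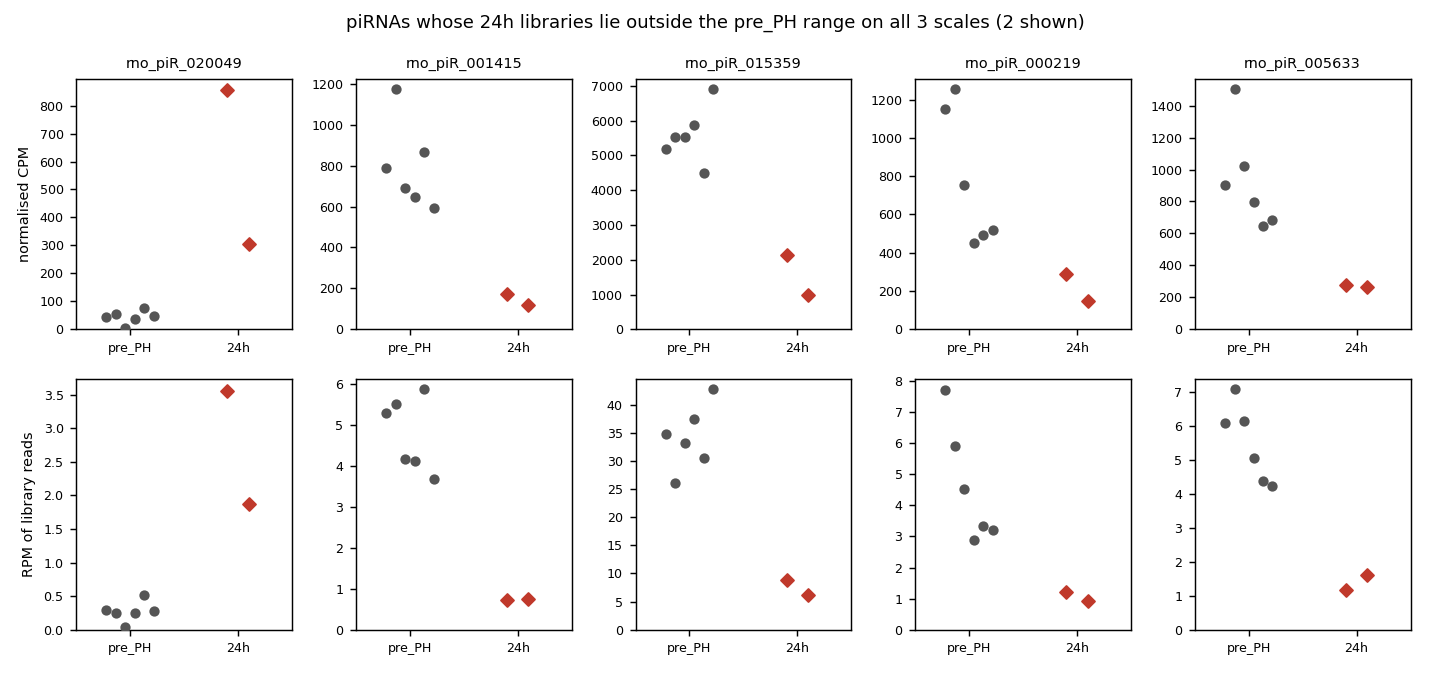
The 5 names whose 24h libraries lie outside the pre_PH range on all 3 scales are shown with 1 point for each library, as normalised CPM (upper row) and as RPM of library reads (lower row). Only rno_piR_020049 is higher at 24h, and in each of the other 4 every pre_PH point lies above both 24h points.

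The remaining names below the pre_PH range in normalised CPM overlapped by share of piRNA reads. Among them rno_piR_000753 had 156 and 49.6 normalised CPM at 24h against 234 to 379 in pre_PH, from 19 and 7 reads at 24h. Its log2 fold change of -1.49 (edgeR adjusted p = 0.343) passed with the authors' library total (0.0469) and without 48h replicate 2 (0.0408). For rno_piR_005736 the level was 49.3 and 42.5 normalised CPM against 53.3 to 279, with 6 reads in each 24h library. The abundant rno_piR_005900 had 15774 and 28430 normalised CPM against 33462 to 73005, and rno_piR_031043 had 887 and 354 against 916 to 1525. Neither passed (log2 fold changes -1.22 and -0.92, edgeR adjusted p = 0.525 for each).

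By abundance, none of the 20 names leading in pre_PH was called, against 2 of all 80 tested names (2.50%). With so few calls in all, 0 among 20 names says little about abundance. In normalised CPM, 4 of these 20 had both 24h libraries below the pre_PH range, against 10 of all 80 tested names (12.5%). Those 10 were all among the 58 names that pass the filter on the 8 libraries alone, a nearer background for abundant names. The median log2 fold change of the 20 was -0.16, against -0.22 over all tested names. Of the 63 names found in all 8 libraries, 60 were tested, with a median of -0.22. They included the 1 rise and the 1 fall called over all 80 names. Together the 63 held 99.9% of piRNA reads in each 24h library and 99.7 to 99.9% in pre_PH. Both called names were minor ones: rno_piR_020049 made up 0.0848% and 0.0234% of piRNA reads at 24h, and rno_piR_001415 0.0333 to 0.111% in pre_PH.

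Names seen in 1 group only had few reads, at most 9 in a library. At 24h, 35 names had reads that no pre_PH library had, in all 38 reads in replicate 1 and 20 in replicate 2, and 2 of these names were found in both libraries. The most frequent was rno_piR_007888, with 4 and 2 reads, 6.13-fold higher in RPM than the 3 reads over all pre_PH libraries that a count of 0 allows. With 2 reads in each, rno_piR_001062 was 4.09-fold above that floor, as was rno_piR_038438, whose 4 reads were copies of 1 sequence in replicate 1. In the other direction, 238 names had reads in pre_PH and in neither 24h library. The numbers come from 6 pre_PH and 2 24h libraries and are not directly comparable. Only 2 of the 238 names had reads in all 6 pre_PH libraries. The first, rno_piR_000906, had 7, 9, 2, 2, 2 and 1 reads, in RPM 2.50-fold above a floor of 3 reads over both 24h libraries. The second, rno_piR_005595, had 1, 4, 2, 2, 4 and 2 reads and was 1.63-fold above it. These folds take the few observed reads as exact, so they are not lower bounds. The names were chosen by their 0 reads in the other group, which set the direction in advance. Of all 414 names, 198 were found in a single library of the 8.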

How the data were processed

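Per the labels' protocols, TRIzol RNA was made into libraries with the Illumina TruSeq small RNA kit, gel purified and sequenced on a HiSeq instrument. The authors deposited, per library and piRNA name, a raw read count and a count of distinct read sequences. They also gave the read count as a percent of all reads and of reads mapped to piRNAs, per the file headers. Build rn4 and the tools CASAVA 1.8, cutadapt and DESeq 1.14.0 are named, without their roles, per the submitters' processing notes. Not given in the sources used here are the aligner, its mismatches and the handling of reads that match several names, so names of near-identical sequence may share or split reads. piRNA sequences and positions were not used here.

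Names missing from a library's table were set to 0 reads. Library totals came from the ratio of count to percent, and the listed names held 99.2 to 99.9% of the authors' piRNA reads. Counts were tested with edgeR 4.0.16 (R 4.3.3; TMM, filterByExpr, robust quasi-likelihood F-test) over all 12 libraries in 4 groups, which share 1 estimate of the spread. Alternatives used DESeq2 1.42.0 and limma 3.58.1 (voom). SE is the log2 fold change over the square root of F. The scripts were tested on simulated data. Permutation p is the share of splits with at least the observed absolute difference of means. No replicate pair agreed within sampling noise by chi-square test. Named were all called piRNAs, the 10 most abundant in pre_PH, up to 8 a side whose groups did not overlap, by p, and the 3 most read of names seen in 1 group only. The comparison, lists and tests were chosen with earlier results of these data known.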

Additional observations from a re-analysis of the deposited data

Results flagged for a closer look

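In sham-operated liver, 2 abundant names had a single library far from the other 5 in normalised CPM. For rno_piR_005787, pre_PH replicate 3 had 232048 normalised CPM and the next library 83356, a gap of 0.643 of the group's range. For rno_piR_000030 that same library had 105618 and the next 35761, a gap of 0.668 of the range. Both gaps exceed Dixon's 95% critical value for 6 libraries. The flag holds for normalised CPM, which carries the scaling factor of 0.480 of replicate 3. By share of piRNA reads the gaps were smaller parts of the range. For rno_piR_005787, replicate 3 held 11.1% and the next library, replicate 4, 6.19%. For rno_piR_000030 these shares were 5.07% and 2.66%. The shares of these names were not tested in this way. In all, 23 groups of values were examined, and chance alone marks about 1 in 20. Without pre_PH replicate 3 the comparison at 24h gave 1 rise and 0 falls.

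Levels at 24h differed from a later time for 3 of the named piRNAs, by direct contrasts in the same fit. All 3 were named because both 24h libraries lay below the pre_PH range, a choice that favours a higher later level in advance. Such differences were not particular to them. Among other tested names, rno_piR_034827 was higher and rno_piR_000324 lower at 48h than at 24h (edgeR adjusted p = 0.0166 for each). Normalised CPM of rno_piR_015359 was 2127 and 991 at 24h and 18206 and 13824 at 168h, higher by 3.36 ± 0.77 (log2, SE) with an edgeR adjusted p = 0.0169. That of rno_piR_005633 was 279 and 262 at 24h and 956 and 1962 at 48h, higher by 2.43 ± 0.78 (log2, SE) with an edgeR adjusted p = 0.0369. For rno_piR_031043 it was 887 and 354 at 24h and 15828 and 19533 at 48h, higher by 4.83 ± 0.74 (log2, SE) with an edgeR adjusted p = 9.4e-05.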

How the results depend on the processing

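The number of rises, 1, became 0 with limma-voom and ran from 0 (without 24h replicate 1) to 2 (without pre_PH replicate 5, which holds 7 of the 8 pre_PH reads of the added name, rno_piR_009544) with a library left out. The number of falls, 1, became 0 with scaling to piRNA totals, upper-quartile factors, TMM without the 10 most abundant, no filter on low counts and the stricter filter. It was 2 with only the 8 libraries, 3 with DESeq2 and 4 with the authors' library total. With a library left out it ran from 0 (pre_PH replicate 2, 3 or 6, either 24h library, or 168h replicate 2) through 2 (48h replicate 1) to 4 (48h replicate 2). Under these settings 6 to 24 names had an unadjusted p under 0.05. The replicate block also gave 0 falls, with 1 rise. The labels do not say whether replicate numbers tie libraries together, so the block was not taken as a paired test. Deviations of same-numbered libraries correlated at 0.278 for number 1 and -0.0767 for number 2 over 63 names. With 2 libraries at 24h, their deviations mirror each other, so these values cannot decide on pairing.

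Counts of names whose groups did not overlap were set beside other scalings after the data were seen. They were 5 above and 5 below by share of piRNA reads and 2 above by the authors' library total. With a pre_PH library left out they ran from 1 to 5 above and from 10 to 12 below.

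The log2 difference in piRNA share ran from -0.68 to 0.26 (without 24h replicate 1). The difference in names at equal depth was -20.6. It ran from -29.3 to -10.8 with a library left out, was -33.7 for names as listed at unequal depth, and was 0 for names with at least 10 reads. The difference in effective number was -1.05 without the most abundant name, and that in the top share -1.21 for the 3 most abundant. With a library left out, the log2 difference in distinct sequences per read ran from -0.13 (without 24h replicate 1) to 0.39, and was -0.04 without pre_PH replicate 3. It was 0.40 without the 10 most abundant names, where both 24h libraries lay above all of pre_PH.

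Fold changes of 7 abundant names, none of them called, changed sign when a library was left out. They ran from -1.14 to 0.37 for rno_piR_000685, -1.56 to 0.036 for rno_piR_005901, -0.059 to 2.42 for rno_piR_005556, -0.74 to 2.07 for rno_piR_005787, -0.037 to 1.89 for rno_piR_008639, -0.26 to 1.06 for rno_piR_005567 and -0.88 to 1.802 for rno_piR_000030. The lowest value was that without 24h replicate 2 in all 7. The highest was that without pre_PH replicate 3, or without 168h replicate 2 for rno_piR_005901 and rno_piR_005567. For rno_piR_000685 the value, -0.40, also became 0.053 with TMM without the 10 most abundant and 0.14 with the replicate block. The causes were not tested. With 2 libraries at 24h, leaving out 1 assumes that the other varies like the remaining groups.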

Other observations

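The ratio of reads of rno_piR_005901 to rno_piR_005900, which no scaling affects, was 1.7996 and 1.886 in the 24h libraries. In pre_PH replicates 1 to 6 it was 0.911, 1.05, 1.12, 0.950, 1.35 and 1.29, so both 24h libraries lay above all 6. The pair was singled out after its values were seen, and the ratio was not tested. In each of the 8 libraries rno_piR_005901 was read from 1 distinct sequence, whereas rno_piR_005900 was read from 58 and 84 at 24h and 80 to 108 in pre_PH.

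Outside the 10 most abundant names, there were 84.6 and 85.8 distinct sequences per 1000 reads at 24h, against 52.2 to 76.7 in pre_PH (exact permutation p = 0.0714, adjusted p = 0.357). These came from 8947 and 9105 reads at 24h and 9618 to 19916 in pre_PH, raw counts from libraries of unequal depth. As a level the groups overlapped, at 7.29% and 4.95% of piRNA reads against 5.66 to 11.8%, and at 306 and 398 RPM against 361 to 709. The number of distinct sequences per read falls as reads are added, and the part of that in the difference was not tested.

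One further name, rno_piR_009544, was picked out after its values were seen. It had 0 reads in pre_PH replicates 1 to 4, 7 in replicate 5 and 1 in replicate 6, against 10 and 3 at 24h. It passed the filter on low counts only through the 48h and 168h libraries, where normalised CPM was 209 and 249.7 at 48h and 122 and 31.4 at 168h. Its log2 fold change at 24h was 2.61 ± 1.07 (SE) and did not pass (edgeR adjusted p = 0.314). Without pre_PH replicate 5, which holds 7 of its 8 pre_PH reads, the adjusted p was 0.0248, a value that follows from leaving out those reads and supports no call.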
